A study of Mus musculus with 8 samples.

Results

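The regions described here are SMAD4 peaks of mouse limb buds that were called in embryos of stage E10.5 (embryonic day) and not at E9.5, and that lay between genes at some distance from any transcript start. A peak of the E10.5 list was a member when no base of it overlapped a peak of the E9.5 list, when its centre was more than 5 kb and less than 100 kb from the nearest annotated transcript 5′ end, and when this centre fell outside every annotated gene body (mouse build mm9, GENCODE vM1 annotation). Of the 6185 E10.5 peaks, 5798 did not overlap an E9.5 peak, 2473 of these lay in the distance range, and 1065 of those were centred between genes. The members thus made up 17.2% of the E10.5 list. Both lists together held 8258 peaks, and those of the E9.5 list served only to leave peaks out. They were chosen by the measured peak calls of both stages and by their position, so that their scores, widths and positions are given as a description, with no test. The DNA sequence of the peaks did not enter the rule. It was compared with that of 1408 E10.5-only distal peaks centred inside genes and of 520 E9.5-only distal peaks between genes.

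SMAD4 is the shared partner of the receptor-activated SMAD proteins and enters the nucleus with them when cells receive BMP, TGFβ or activin-type signals. SMAD3 and SMAD4 contact a short SMAD box, whereas the SMADs of the BMP branch are known for GC-rich sites such as those of BMP responsive elements. In the limb bud mesenchyme, BMP signals act together with SHH, FGF, WNT and retinoic acid, and many of the genes involved are controlled by enhancers that lie between genes, often far from the promoter.

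The embryos were of the NMRI strain according to the labels and homozygous for a Smad4 allele that encodes the endogenous protein with a 3xFLAG tag (genotype label Smad4Flag), and chromatin was immunoprecipitated with the M2 anti-FLAG antibody. Each stage had 2 ChIP samples and 2 input samples, 8 in all, with fore- and hindlimb buds of about 100 embryos pooled per replicate at E10.5 and forelimb buds with attached trunk of about 80 embryos at E9.5. The protocol dates the latter embryos to E9.75, and every sample is labelled as forelimb bud in its source field. Tissue therefore changes together with stage, and the 2 cannot be told apart. None of the 8 samples was from untagged embryos, and both replicates of a stage had been combined by the authors. No value thus has an error between replicates, the depth is unknown, and a region without a peak at E9.5 is not shown to be unbound. Intervals are 95% intervals over peaks and cover counting error only, and p-values describe these lists of peaks rather than embryos.

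Examples from the top of the set show the kinds of DNA found there. The 300 bp around the centre are printed for 2 of the 5 members with the highest scores (mm9, plus strand, 5′ to 3′), and capitals mark the SMAD box CAGAC on either strand, where the minus strand reads GTCTG, and the GC-rich SMAD site GGCGCC. Each window is named by the nearest protein-coding gene.
4930452B06Rik, chr14:9624250-9624549: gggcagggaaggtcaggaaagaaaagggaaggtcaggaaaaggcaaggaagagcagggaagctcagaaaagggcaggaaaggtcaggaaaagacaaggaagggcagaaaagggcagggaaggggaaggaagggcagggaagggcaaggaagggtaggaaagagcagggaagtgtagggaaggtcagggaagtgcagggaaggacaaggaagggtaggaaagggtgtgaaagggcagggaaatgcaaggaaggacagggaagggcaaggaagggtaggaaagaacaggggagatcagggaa
Hdac4, chr1:94076660-94076959: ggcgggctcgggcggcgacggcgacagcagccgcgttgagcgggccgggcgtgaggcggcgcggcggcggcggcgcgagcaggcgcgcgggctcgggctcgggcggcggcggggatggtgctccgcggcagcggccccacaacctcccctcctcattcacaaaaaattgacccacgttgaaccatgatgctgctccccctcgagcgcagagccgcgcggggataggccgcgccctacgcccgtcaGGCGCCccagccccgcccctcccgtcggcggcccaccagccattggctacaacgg
Neither window held a SMAD box. The window whose nearest protein-coding gene was 4930452B06Rik consisted largely of short purine repeats. The window upstream of Hdac4, the gene of a class II histone deacetylase, held 1 GC-rich SMAD site and 46 CpG dinucleotides at a GC content of 76.0%. The 2 windows thus differed widely in sequence, although both were among the best-scored members.

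For the 5 transcription factor genes of the limb bud mesenchyme whose best member scored highest, this best member of each gene is printed in the same way, since they stand for distal regions of genes known from limb bud patterning.
Lmx1b, chr2:33545940-33546239: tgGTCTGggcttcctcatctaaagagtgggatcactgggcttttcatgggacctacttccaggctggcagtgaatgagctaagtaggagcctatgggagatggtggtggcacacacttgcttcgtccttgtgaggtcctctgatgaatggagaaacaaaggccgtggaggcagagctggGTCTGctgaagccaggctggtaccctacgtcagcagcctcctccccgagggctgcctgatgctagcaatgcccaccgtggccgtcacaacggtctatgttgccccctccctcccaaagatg
Hand2, chr8:59825943-59826242: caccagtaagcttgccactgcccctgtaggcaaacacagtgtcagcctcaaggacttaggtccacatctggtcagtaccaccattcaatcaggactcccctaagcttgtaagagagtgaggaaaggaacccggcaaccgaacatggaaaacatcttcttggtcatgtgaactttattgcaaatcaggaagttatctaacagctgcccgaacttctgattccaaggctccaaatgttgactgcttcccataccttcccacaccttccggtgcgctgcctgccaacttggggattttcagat
Irx2, chr13:72803231-72803530: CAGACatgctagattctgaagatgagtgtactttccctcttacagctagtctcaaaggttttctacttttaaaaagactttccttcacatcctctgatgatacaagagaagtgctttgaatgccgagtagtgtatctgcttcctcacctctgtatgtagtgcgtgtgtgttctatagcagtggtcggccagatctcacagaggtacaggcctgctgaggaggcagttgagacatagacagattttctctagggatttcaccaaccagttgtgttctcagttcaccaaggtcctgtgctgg
Pbx3, chr2:34011705-34012004: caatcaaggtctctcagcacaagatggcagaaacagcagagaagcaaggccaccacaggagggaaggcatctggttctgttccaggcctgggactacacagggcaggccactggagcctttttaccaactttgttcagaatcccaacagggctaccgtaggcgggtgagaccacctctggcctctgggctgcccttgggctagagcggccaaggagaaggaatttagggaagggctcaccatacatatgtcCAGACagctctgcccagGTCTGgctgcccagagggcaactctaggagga
Twist2, chr1:93611227-93611526: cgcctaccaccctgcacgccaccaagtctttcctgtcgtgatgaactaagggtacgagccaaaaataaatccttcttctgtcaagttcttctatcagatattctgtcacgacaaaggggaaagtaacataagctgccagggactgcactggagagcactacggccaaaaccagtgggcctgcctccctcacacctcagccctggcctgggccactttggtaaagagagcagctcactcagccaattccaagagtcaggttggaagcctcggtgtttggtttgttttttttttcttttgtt
These windows were ordinary, mixed sequence. Of the 295 possible words of 6 letters in a window, between 270 and 279 were distinct in each of them, against 118 in the window nearest to 4930452B06Rik. SMAD boxes were found in 3 of the 5. The region upstream of Lmx1b, which specifies dorsal identity, had 2, the region downstream of the start of Irx2 had 1, and the region beside Pbx3, a TALE homeodomain gene, had 2 in opposite orientation. No box was found in the windows beside Hand2, a regulator of posterior identity, and Twist2, a bHLH gene of the mesenchyme.

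The scores of the members were low within the E10.5 list. The score is the authors' value for a peak, whose unit the list does not name, and peaks are ranked here from the highest score down. The median was 54.6 (quartiles 50.2 and 63.8, range 31.4 to 210), against 59.8 for all E10.5 peaks. It was 56.6 for the E10.5-only distal peaks inside genes and 63.6 for the E10.5-only peaks within 5 kb of a transcript start. The best member ranked 34th in the list and the median rank was 4075. Only 3 members were among the top 100 E10.5 peaks and 25 among the top 500. A score of 100 or more was reached by 26 members (2.44%, interval 1.67% to 3.55%), 90 members scored 75 to 100, 695 scored 50 to 75 and 254 (23.8%) fell below 50. Most of the members thus scored between 50 and 75. The median width was 2258 bp (quartiles 1488 and 3522 bp), compared with 2552 bp for all E10.5 peaks, 2682 bp for the E10.5-only peaks within 5 kb of a transcript start, 2947 bp for the E10.5-only distal peaks inside genes and 1080 bp for the E9.5-only distal peaks between genes. The members covered 2.93 Mb.

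**Figure D1:**
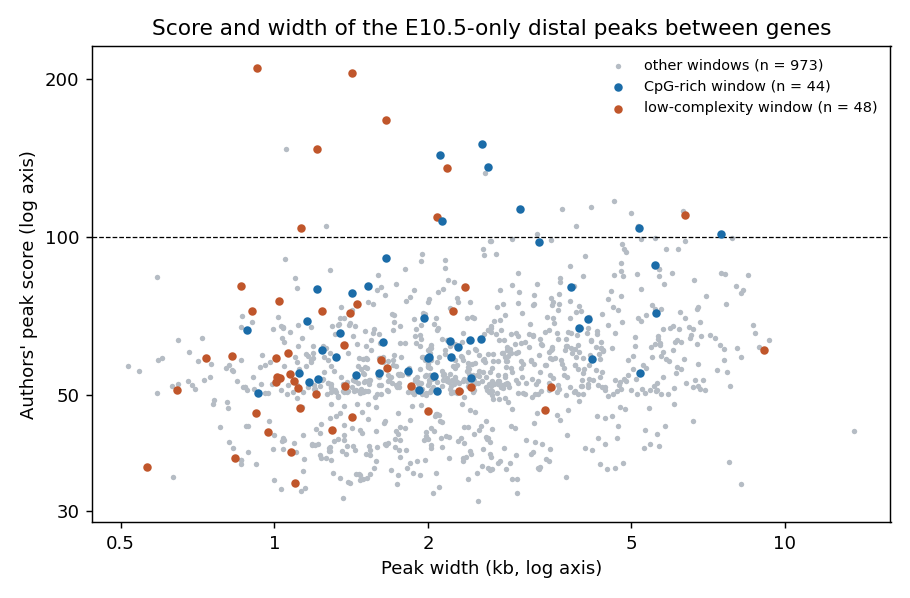
Peak width (kb, log axis) and the authors' score (log axis) of all 1065 members, each shown as a point. Orange points mark the 48 members with a low-complexity central window and blue points the CpG-rich ones that are not also of low complexity. The dashed line stands at a score of 100, above which 15 of 26 members belong to either kind.

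The 10 best-scored members lay as follows. The highest, at chr15:47365137-47366061 (score 210), was 81.1 kb downstream of the start of Csmd3, a gene for a large transmembrane protein, and 3105 kb from the nearest E9.5 peak. The next, at chr14:9623690-9625109 (score 205), was 8.63 kb downstream of the start of Gm9800, with 4930452B06Rik as the nearest protein-coding gene at 126 kb. The third, at chr15:96780748-96782401 (score 167), lay 69.2 kb downstream of the start of the amino acid transporter gene Slc38a4. The distances to the nearest start thus ranged widely. The member at chr1:94075534-94078086 (score 150) was 31.8 kb upstream of Hdac4 and 19.1 kb from an E9.5 peak. Members at chr12:55515510-55516564 and chr5:28425253-28426462 both scored 147, the former 211 kb upstream of Egln3 with Gm7555 as the nearest start at 13.1 kb, the latter 27.9 kb downstream of the start of Insig1, whose protein retains SREBP in the endoplasmic reticulum. At chr13:48640484-48642592 (score 143), a member lay 7.9 kb upstream of Mirlet7a-1, a microRNA gene of the let-7 family. The remaining 3 were found 73.7 kb upstream of Tln2, which encodes talin 2 (score 136), 11.8 kb upstream of Rdx, which encodes radixin (score 135), and 72.5 kb upstream of Bach2, a leucine zipper gene (score 132, nearest start Gm11928).

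A window was counted as of low complexity when under 60% of its possible 6-letter words were distinct, a measure chosen after these sequences were seen and given with no test. By this measure, 48 members (4.51%, interval 3.42% to 5.92%) were of low complexity, compared with 2.77% (2.03% to 3.76%) of the E10.5-only distal peaks inside genes and 2.12% (1.19% to 3.75%) of the E9.5-only distal peaks between genes. All 300 bp tiles between genes in the same distance range gave 1.4%, and 3.79% after weighting to the members' GC content. The share was not even over the scores. It was 4.33% below a score of 50, 3.74% from 50 to 75 and 3.33% from 75 to 100, but 8 of 26 members scored 100 or more (30.8%, interval 16.5% to 50%) and 5 of the best 10. Inside genes, 3 of 46 peaks scored 100 or more were of low complexity (6.52%, 2.24% to 17.5%), and between genes at E9.5 there were 0 of 14, for which the interval reaches 21.5%. At least 90% of the bases were purines on one strand in 20 of the 48 windows, and 39 of the 48 had no SMAD box. Read mapping over repeats could not be seen in these lists, and its part in the scores was not tested.

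A different kind of repeat was also found. The member downstream of the start of Insig1, the sixth by score, was an array of the SMAD box itself, with 48 boxes in 300 bp, all on the plus strand, and only 22 distinct words. It is printed because no other member held as many boxes, and was chosen after this was seen. In the E9.5-only distal peaks between genes the most boxes in a window were 44.
Insig1, chr5:28425708-28426007: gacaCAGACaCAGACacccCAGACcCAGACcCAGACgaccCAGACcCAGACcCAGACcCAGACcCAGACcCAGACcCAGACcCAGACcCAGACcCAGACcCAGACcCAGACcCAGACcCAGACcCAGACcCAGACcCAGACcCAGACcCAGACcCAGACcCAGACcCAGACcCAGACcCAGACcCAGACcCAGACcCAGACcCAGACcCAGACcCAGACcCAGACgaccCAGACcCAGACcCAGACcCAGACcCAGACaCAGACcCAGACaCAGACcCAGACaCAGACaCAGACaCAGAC
Further repeat windows with 10 or more boxes were found 25.1 kb upstream of Tbc1d23 (23 boxes, score 53.8) and 21.0 kb downstream of the start of Acot10 (15 boxes, score 36.4). The other low-complexity members had fewer than 10.

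To determine whether the members shared binding sequences, 22 sequences were counted in the 300 bp around each centre, on both strands. The SMAD box CAGAC was present in 607 of 1065 members (57.0%, interval 54.0% to 59.9%). The share was 57.8% (55.2% to 60.4%) in E10.5-only distal peaks inside genes, and 66.2% (62% to 70.1%) in E9.5-only distal peaks between genes. Among the 2963326 tiles of the eligible sequence, 44.8% held a box, and 55.8% after weighting to the members' GC content. The share in the members lay near that of sequence of the same base composition and of the peaks inside genes, from which it differed by −0.817 percentage points (interval −4.75 to 3.11, Fisher's exact test, two-sided, p = 0.712). The share was lower than in the E9.5-only peaks by 9.16 points (interval −14.1 to −4.05, two-sided Fisher's exact test p = 0.000474). Adjusted over 46 tests by Benjamini-Hochberg, the latter p was 0.0218. This call did not hold in all settings. In the same Fisher's exact test the difference was −7.60 points without low-complexity windows (adjusted p = 0.102), −7.38 points with peaks scored 50 or more (adjusted p = 0.173), −45.0 points with peaks scored 100 or more (adjusted p = 0.0908) and −6.51 points with 500 bp windows (adjusted p = 0.183).

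E9.5 peaks were narrower and the lists give no summits, so the shares were also set out by width. In peaks of 500 to 1000 bp, 56.8% of 74 members and 69.1% of 204 E9.5-only peaks had a box. From 1000 to 1500 bp the shares were 53.0% of 200 and 67.1% of 152, and from 1500 to 3000 bp 58.2% of 447 and 62.4% of 125. The members had the lower share in each of these bands. With only peaks under 1500 bp in both classes the difference was −13.4 points (interval −20.9 to −5.87, adjusted p = 0.0124, Fisher's exact test), an alternative chosen after the values were seen. From the narrowest to the widest quartile of the members the share was 54.7%, 57.3%, 58.9% and 57.1%.

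The shares were further apart at high scores. The share of members with a box was 56.7% below a score of 50, 58.3% from 50 to 75 and 56.7% from 75 to 100, but 26.9% (7 of 26, interval 13.7% to 46.1%) at 100 or more. Among E9.5-only peaks between genes of the same score it was 92.9% (13 of 14, interval 68.5% to 98.7%), and inside genes at E10.5 it was 54.3% (25 of 46, interval 40.2% to 67.8%). Without low-complexity windows, 6 of 18 members scored 100 or more had a box (33.3%). Of the 26 members, 8 were of low complexity and 7 CpG-rich, and 4 of the other 11 held a box. Scores are not on a scale shown to be the same in both lists. With both lists limited to scores of 100 or more before the rule was applied, the difference from the E9.5-only class (−45.0 points, interval −63.6 to −17.8) did not pass the adjusted Fisher's exact test (adjusted p = 0.0908).

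**Figure D2:**
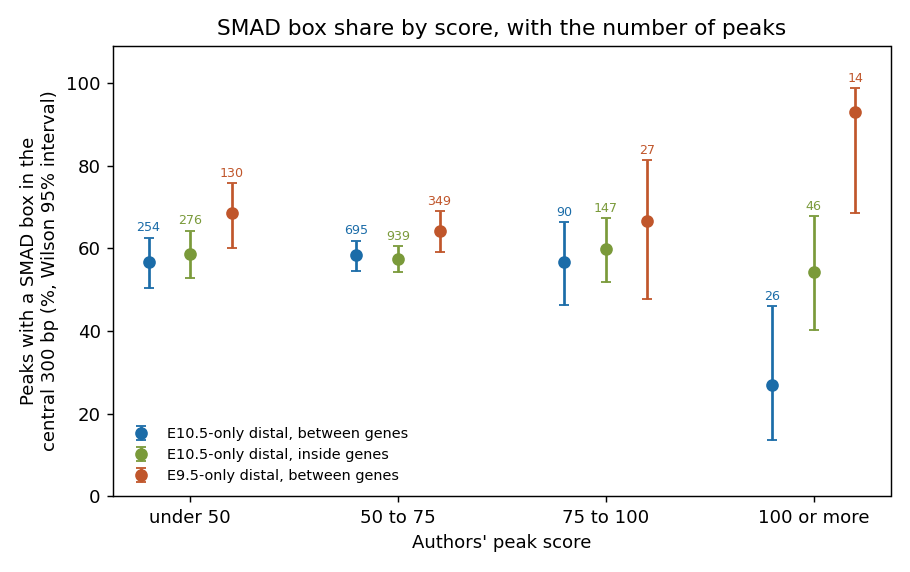
Share of peaks with at least 1 SMAD box in the central 300 bp (points, with Wilson 95% intervals), by the authors' score, for the members (blue), E10.5-only distal peaks inside genes (green) and E9.5-only distal peaks between genes (orange), with the number of peaks above each interval. The members stay between 56.7% and 58.3% up to a score of 100 and stand at 26.9% above it, where the E9.5-only peaks are at 92.9%.

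Around the members, the share of windows with a SMAD box was slightly higher at the centre than in the flanks. It was present in 46.4% of 250 bp windows 4 kb from the centre, in 48.5% at 1 kb and in 51.6% (interval 48.6% to 54.6%) at the centre, while the mean GC content rose from 45.5% to 52.1%. In the E10.5-only distal peaks inside genes it was 51.3% at the centre and 45.7% at 4 kb, the lowest value of their flanks. At 3.5 kb, however, it was 50.4% (interval 48.5% to 52.2%), where the members had 44.5% (42.4% to 46.6%). In the E9.5-only peaks the share rose from 43.5% at 4 kb to 60% (55.7% to 64.1%) at the centre, most of it within the last 0.5 kb. The GC content at the centre was alike in all 3 classes, with medians of 51.7% in the members, 51.7% inside genes and 52.0% in the E9.5-only class.

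**Figure D3:**
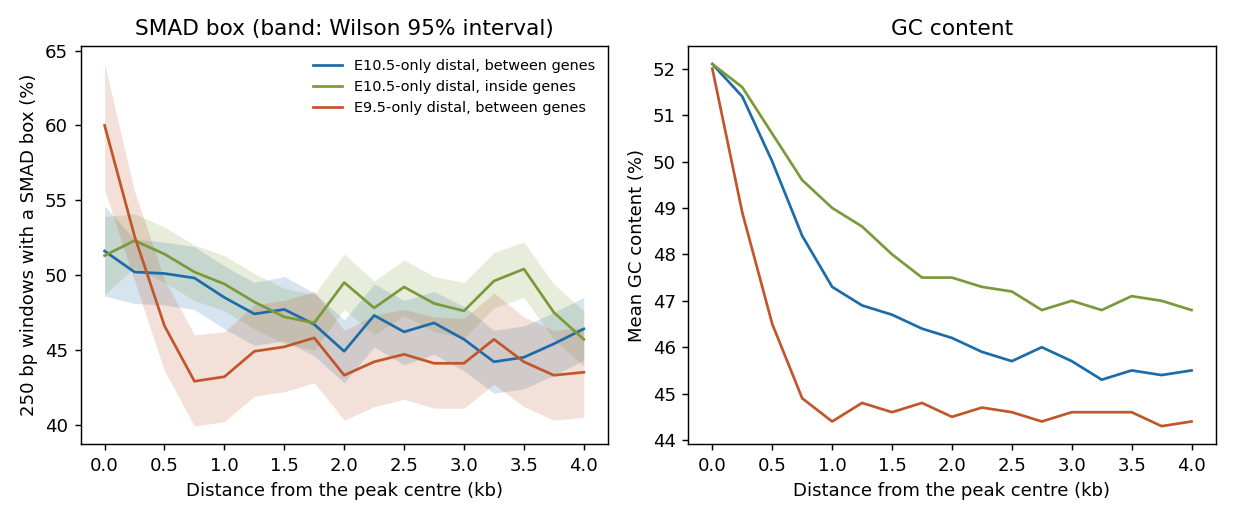
Left, share of 250 bp windows with a SMAD box against the distance from the peak centre (kb, both sides pooled), with Wilson 95% intervals as bands. Right, mean GC content of the same windows. The members (blue) reach 51.6% at the centre and the E9.5-only distal peaks between genes (orange) 60%, at nearly the same GC content, while E10.5-only distal peaks inside genes are drawn in green.

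Several boxes in 1 window were not frequent. No box was found in 43.0% of the members, 1 box in 35.0%, 2 in 13.6% and 3 or more in 8.36% (interval 6.84% to 10.2%). In the E10.5-only distal peaks inside genes 7.46% (6.20% to 8.95%) held 3 or more, and in the E9.5-only class 12.1% (9.59% to 15.2%). The longer box CAGACC, which contains the SMAD box, was found in 22% of the members, 19.2% of the peaks inside genes and 23.3% of the E9.5-only peaks, with 12.8% of all tiles and 19.8% at equal GC content. Neither difference passed the adjusted test (adjusted p = 0.445 and 0.723, Fisher's exact test with Benjamini-Hochberg adjustment).

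The GC-rich site known for SMADs of the BMP branch was more frequent than in the tiles. GGCGCC was present in 47 members (4.41%, interval 3.33% to 5.82%), compared with 2.49% inside genes, 3.08% in the E9.5-only class, 0.626% of all tiles and 3.06% of tiles at the members' GC content. The difference from the peaks inside genes was 1.93 points (interval 0.489 to 3.49), with an unadjusted p of 0.00898 and an adjusted p of 0.138 (two-sided Fisher's exact test). In the same Fisher's exact test it passed with peaks scored 50 or more (2.90 points, adjusted p = 0.0364) and with peaks within 1 kb merged (2.22 points, adjusted p = 0.0373). In 200 bp windows it was 0.595 points (interval −0.549 to 1.85, adjusted p = 0.762, Fisher's exact test), and with a lower limit of 10 kb 1.34 points (interval −0.320 to 3.09, adjusted p = 0.634). The shorter site GGCGC, which GGCGCC contains, was found in 12.9% of the members and 13.7% of tiles of equal GC content. The BMP element variant GGAGCC was found in 25.3% and 25.1%, respectively.

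The 4 members with the SMAD palindrome GTCTAGAC are printed with 10 bases to either side and the palindrome in capitals, since they are the few windows with a full inverted repeat of the SMAD core. They were 0.376% of the members, against 0.355% of the peaks inside genes, 1.35% of the E9.5-only peaks (adjusted p = 0.311, Fisher's exact test), 0.222% of all tiles and 0.241% of tiles of equal GC content.
Mrpl36, chr13:73502929-73502956: tcactgacatGTCTAGACtgtatcacat
Pex26, chr6:121117381-121117408: atgaggctcgGTCTAGACtcaccccact
Gm9966, chr7:103089471-103089498: ttggacggtgGTCTAGACtctgggagaa
Adcyap1r1, chr6:55462555-55462582: tagcgcaaagGTCTAGACatgatttgag
These 4 members scored 69.9, 65.9, 57.2 and 55.1, in the order printed, and ranked 1834 to 3974 in the E10.5 list. GLI proteins carry the SHH signal to chromatin, and their site GACCACCCA, shown in capitals (TGGGTGGTC on the minus strand), was found in 7 members, or 0.657% against 0.190% of tiles and 0.438% of tiles of equal GC content.
Runx3, chr4:134655445-134655473: cctactgcaaGACCACCCAcccacccacc
Skor1, chr9:62940013-62940041: ttctgttcctGACCACCCAgggacaaggc
Inf2, chr12:113817322-113817350: actgactacaGACCACCCAgcaggcctcc
Gm9966, chr7:103089490-103089518: ctgggagaagTGGGTGGTCagaccagcct
Comtd1, chr14:22685130-22685158: acagagagcaGACCACCCAgagccaggct
Fat4, chr3:39522853-39522881: aggctgtcctGACCACCCAgttctcccag
Ptchd2, chr4:147604039-147604067: ccctgggcacTGGGTGGTCacacccagct
The best-scored of these was the member 21.0 kb upstream of Runx3 (score 99.5). The member upstream of Gm9966 held both the palindrome and a GLI site. Skor1, nearest to the second window, encodes a corepressor of the SKI family. The difference from the peaks inside genes, at 0.355%, did not pass the test (0.302 points, interval −0.280 to 1.02, adjusted p = 0.677, Fisher's exact test). A match of letters is a description, not a bound site.

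Of the other sequences, TCF/LEF TCAAAG, the site through which WNT signals act, gave the only further call. It was present in 15.4% of the members (interval 13.4% to 17.7%), 18% of the peaks inside genes and 22.1% (18.8% to 25.9%) of the E9.5-only peaks, with 15.9% in tiles of equal GC content. From the E9.5-only class it differed by −6.72 points (interval −11.0 to −2.65, adjusted p = 0.0279, Fisher's exact test). It did not pass in 7 of 10 settings that changed the peaks or the window, and was −1.12 points in 200 bp windows (adjusted p = 0.762, Fisher's exact test). Against the E9.5-only class, 2 of 23 features, or 8.70%, passed, and against the peaks inside genes 0 of 23, or 0%, with 4 and 3 at an unadjusted p below 0.05.

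Letters known as sites of transcription factors that are known from the limb bud mesenchyme were near the level of sequence with the same GC content. The TALE hexamer TGACAG of MEIS and PKNOX1 was present in 22.1% of the members and 21.1% of these tiles, the homeodomain site TAATTA in 3.76% and 3.33%, the PBX-HOX site TGATTNAT in 3.38% and 2.49%, and the E-box CATCTG in 22.7% and 23.9%. The E-box CAGCTG was at 20% and 18.6%, and at 25.6% in the E9.5-only class (difference −5.58 points, adjusted p = 0.159, Fisher's exact test). Forkhead TGTTTAC was found in 3.38% of the members and 2.98% of these tiles, SOX ACAATGG in 3.94% and 4.06%, the GATA factor site AGATAAG in 3.10% and 3.02%, and AP-1 TGANTCA in 8.08% and 7.63%. TEAD GGAATG was at 15.5% and 17%, T-box AGGTGTGA at 1.03% and 1.52% and SP/KLF GGGCGG at 10.3% and 9.51%. ETS CCGGAAG was found in 1.78% of the members, 2.51% of these tiles and 3.12% of the peaks inside genes (unadjusted p = 0.0391, adjusted p = 0.30, Fisher's exact test). None of these passed the adjusted test against either class. A core of the CTCF site was found in 3 members, nearest to Chd2, Acvrl1 and Kcnk18, or 0.282%, against 0.639% inside genes, 0.769% in the E9.5-only class and 0.346% of tiles of equal GC content, and neither difference passed the adjusted test.

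CpG-rich windows, with a GC content of at least 50% and an observed over expected CpG ratio of at least 0.6, made up 46 members (4.32%, interval 3.25% to 5.71%). This was 0.440% in all tiles and 4.45% in tiles of the members' GC content, 2.63% inside genes (difference 1.69 points, interval 0.248 to 3.26, adjusted p = 0.220, Fisher's exact test) and 3.46% in the E9.5-only class (adjusted p = 0.723). The difference from the peaks inside genes passed with protein-coding transcripts only (3.34 points, adjusted p = 0.00330, Fisher's exact test) and with scores of 50 or more (2.80 points, adjusted p = 0.0442). Their median score was 63.3. The best-scored after Hdac4 were beside A830005F24Rik (the member near Mirlet7a-1, score 143), Tln2 (136), Pax3 (113), Foxd1 (107), Bahcc1 (104) and Dicer1 (101). Pax3 marks the dermomyotome and migrating muscle precursors, Foxd1 is a forkhead gene, and Dicer1 encodes the enzyme that matures microRNAs. These genes were picked by score among the CpG-rich members after the values were seen. Among the 46 were also low-complexity windows nearest to Med4 (score 52.8) and Zfp438 (42.5), with 99.7% and 99.3% purines on one strand.

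With respect to genes, the members were spread over 934 intervals between gene bodies, of which 825 held 1 member, 92 held 2 and 17 held 3 or more. The distance to the nearest transcript start had a median of 24.0 kb (quartiles 12.9 and 44.2 kb). For 667 members (62.6%) this start belonged to a protein-coding gene, for 98 to a processed transcript, for 96 to a pseudogene and for 44 to a microRNA gene. To the nearest protein-coding start the median was 35.5 kb, and it was 100 kb or more for 141 members. In the space open to the rule, members were found at 1.38 per Mb (exact Poisson interval 1.19 to 1.6) between 5 and 10 kb from a start, 1.47 (1.31 to 1.66) from 10 to 20 kb, 1.26 (1.13 to 1.39) from 20 to 50 kb and 0.834 (0.726 to 0.953) from 50 to 100 kb. The density of members thus was lowest in the outermost band. The E9.5-only peaks had 0.584, 0.681, 0.527 and 0.586 per Mb in these bands, and 29.0% of them (25.3% to 33.1%) lay beyond 50 kb, against 20.2% of the members (17.9% to 22.7%). Upstream of the nearest protein-coding start lay 58.5% of the members (55.5% to 61.4%), against 59.5% of all tiles.

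At the borders of the rule, the members just beyond 5 kb lay 5.06 kb from AC134910.1 (score 63) and from Gtpbp5 (score 85.1), and the peaks just within it lay 5.00 kb from a U6 gene (58.2) and 4.93 kb from 4931408A02Rik (35.0). Near 100 kb, the outermost members were 99.6 kb from Cntn3 (60.9) and 98.4 kb from AC161513.1 (56.9), and the peaks just beyond were upstream of Nav2 (54.4) and Ppp2r2d (56.1). Members came as near as 1.27 kb to an E9.5 peak, beside Pdzk1ip1 (78.5), and 1.72 kb, with Rcn1 as the nearest protein-coding gene (36.2). The smallest overlaps that kept a peak out were 623 bp beside Kcnk9 (103) and 628 bp beside Arid1b (45.0). The centres nearest to a gene lay 17 bp outside one beside Gm14025 (62.2) and 62 bp outside one beside Vapb (79.1), while peaks beside Pitx1 (93.2) and Parn (53.9) were left out with their centres 42 and 116 bp inside. At both distance borders the named members scored higher than the named peaks outside, with 2 peaks on each side. The whole peak lay outside genes for 1032 members, and 33 reached into a gene.

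The spacing of the members is given as counts, and no share for an even spread was computed. Another member was found within 10 kb of 60 members (5.63%) and within 100 kb of 275 (25.8%). Any other E10.5 peak, from the whole list of 6185, was within 100 kb of 627 (58.9%). An E9.5 peak lay within 100 kb of 255 members (23.9%), and the median gap to the nearest one was 245 kb. The 3 densest windows of 100 kb held 4 members each. They were at chr19:59256277-59356276, nearest to Vax1 and Kcnk18 (scores 51.7 to 105), at chr2:173191897-173291896, nearest to Pmepa1 and 1700021F07Rik (52.5 to 84.9), and at chrX:96345804-96445803, nearest to Efnb1 (44.5 to 70.8). Vax1 is a homeobox gene of the ventral forebrain and eye, and Pmepa1 encodes an inhibitor of TGFβ signalling. The 3 widest members, of 13676, 9297 and 9095 bp, were nearest to Pla2g2f (score 42.7), Sipa1l2 (63.4) and Pldi (60.7), and were thus of middle or low score.

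The X chromosome held 11 members at 0.130 per Mb (exact Poisson interval 0.0648 to 0.232), compared with 1.20 per Mb over all chromosomes. Chromosome 11 was densest with 2.19 per Mb (1.74 to 2.71), followed by chromosome 19 with 1.94, while chromosome 18 with 0.799 (0.507 to 1.20) was the lowest of the autosomes. The X chromosome was thus below every autosome, and the same held for the E9.5-only peaks, with 3 peaks at 0.0354 per Mb. Embryos of both sexes entered the study, the input of the X chromosome is not in the values used here, and the part of copy number or mappability was not tested. Of the 11 X-linked members, 4 lay beside Efnb1, the gene of the membrane ligand ephrin-B1. They were 12.3, 62, 66.4 and 82.1 kb downstream of its start, with scores of 70.8, 68.2, 52.5 and 44.5.

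**Figure D4:**
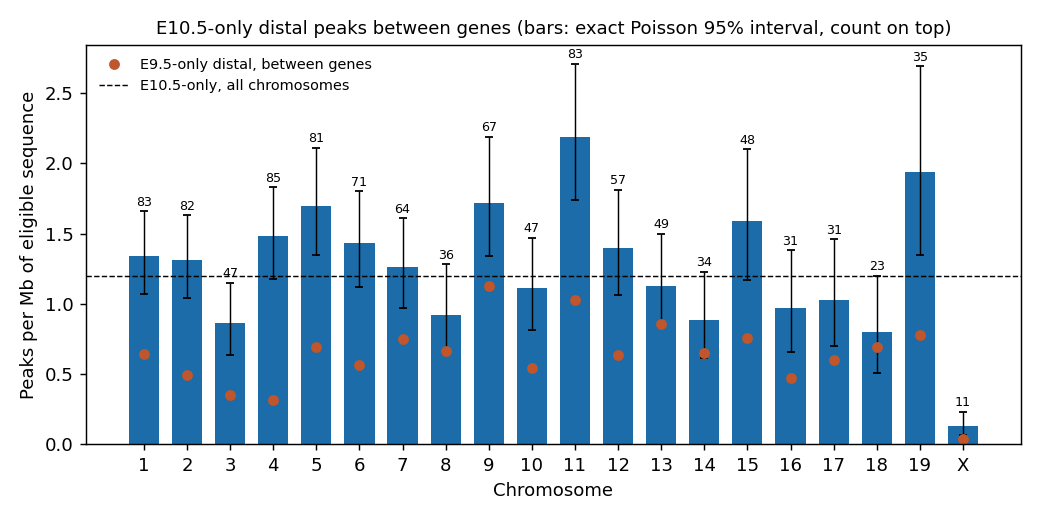
Members per Mb of eligible sequence between genes on each chromosome (bars, with exact Poisson 95% intervals and the number of members on top), and E9.5-only distal peaks between genes (orange points). The dashed line is the density of the members over all chromosomes, 1.20 per Mb, and the bar of the X chromosome stands at 0.130 per Mb.

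The nearest protein-coding genes of the members numbered 935, or 4.18% of 22350, and 2300 genes (10.3%) had a member within 100 kb of a transcript start. Of the 935, 828 were nearest to 1 member, 88 to 2 and 19 to 3 or more. An E10.5 peak of any kind lay within 5 kb of a start of 201 of them (21.5%, interval 19% to 24.2%), compared with 15.5% of all protein-coding genes. Genes with such a promoter-proximal peak were thus somewhat more frequent beside members, and no test was made. The 482 nearest genes of the E9.5-only distal peaks between genes, out of 22350, included 93 of the members' genes, or 9.95% of the latter. These were 19.3% of the E9.5 genes, where 4.18% of all protein-coding genes were nearest to a member. The overlap was thus above the share over all genes, and it was not tested. The genes with most members were 1700021F07Rik with 5, Ajap1 with 4 and Efnb1 with 4. They were followed by Haao, Vrk1, St3gal1, Acot11, Aldh1b1, Fat4 and Gm10941 with 3 each. For Vrk1 and Fat4 the nearest member was 389 and 460 kb away, and these members lay in long stretches without a protein-coding start.

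To describe which regulators of limb development lay beside members, gene lists were used that had been drawn up with earlier results of these data known. They support no statement on a pathway as a whole. Of 41 genes of BMP and TGFβ signalling, 7 (17.1%, interval 8.53% to 31.3%) had a member within 100 kb, against 10.3% of all protein-coding genes. Of 51 limb mesenchyme transcription factors, 13 did (25.5%, 15.5% to 38.9%), and so did 8 of 24 WNT genes (33.3%, 18% to 53.3%). Retinoic acid genes had 4 of 15 (26.7%), chondrogenic and skeletal regulators 5 of 18 (27.8%), FGF genes 3 of 17 (17.6%) and SHH genes 2 of 13 (15.4%). Of the lists of other cell types, the ectodermal one had 5 of 18 (27.8%), muscle precursors and somite 4 of 16 (25%), endothelium and blood 5 of 16 (31.2%) and neural genes 2 of 15 (13.3%), the lowest share of all lists. Every list thus gave a share above 10.3%, those of other cell types included, but the lower bound of the interval was below it for the BMP and TGFβ, SHH, FGF, muscle and neural lists. The E9.5-only distal peaks between genes, whose background was 5.10%, were within 100 kb of 7 of the 51 limb mesenchyme factors (13.7%), 3 of 13 SHH genes (23.1%), 3 of 15 retinoic acid genes, 2 of 18 skeletal genes, 1 of 41 BMP and TGFβ genes and 0 of the FGF and WNT genes. They were also within 100 kb of 5 of 18 ectodermal, 2 of 15 neural, 1 of 16 endothelial and 0 of 16 muscle genes. Their share was thus higher than that of the members for the SHH list and equal to it for the ectodermal and neural lists. An E10.5 peak within 5 kb of a start, found for 15.5% of all protein-coding genes, was present at 26 of the 51 limb mesenchyme factors (51%), 21 of the 41 BMP and TGFβ genes (51.2%) and 9 of the 17 FGF genes (52.9%). The SHH, WNT and skeletal lists were at 38.5%, 37.5% and 33.3%, muscle and endothelial genes at 25% each, retinoic acid genes at 20%, ectodermal genes at 16.7% and neural genes at 13.3%.

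**Figure D5:**
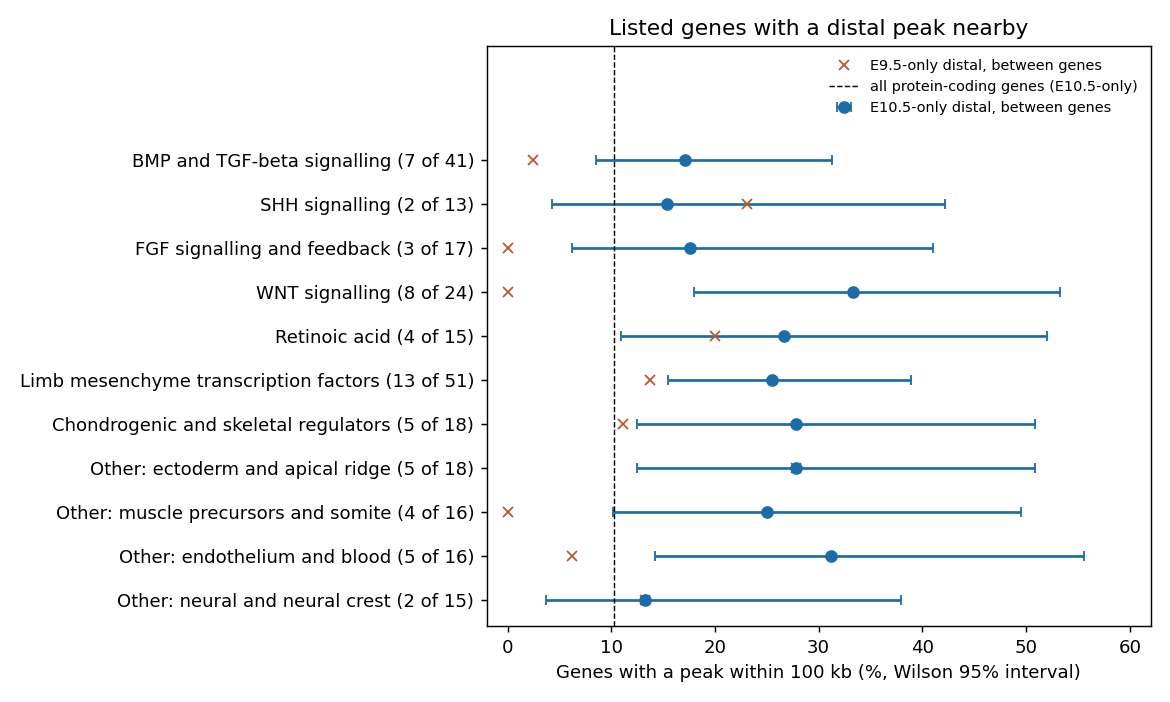
Share of the genes of each list with a member within 100 kb of a transcript start (blue points, Wilson 95% intervals, numbers in brackets), and with an E9.5-only distal peak between genes within 100 kb (orange crosses, hidden behind the points of the ectoderm and neural lists, where both shares are equal). The dashed line marks 10.3%, the share of all protein-coding genes beside a member. All the blue points lie to its right, from 13.3% for neural genes to 33.3% for WNT genes.

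A list gene was the nearest protein-coding gene for 51 of the 1065 members, which belonged to 43 genes. By list, between 0% (SHH) and 27.8% (skeletal) of the genes were nearest to a member, with 14.6% for BMP and TGFβ genes and 19.6% for limb mesenchyme factors, against 4.18% of all protein-coding genes. The best-scored member of each is given for the 25 highest, by group. Among limb mesenchyme factors, it was 50.1 kb upstream of Lmx1b (score 79.6), 26.3 kb downstream of the start of Hand2 (72.2), 33.3 kb downstream of that of Irx2 (62.8) and 57.1 kb downstream of that of Pbx3 (61.4). Further members lay 86.7 kb upstream of Twist2 (57.8) and 31.1 kb upstream of Pitx1, which specifies hindlimb identity (53.5). All 6 of these scores were below 100, and the lengths of the peaks ranged from 1612 bp at Irx2 to 8074 bp at Pbx3. The member at Lmx1b lay 6.18 kb from an E9.5 peak and the one at Pitx1 16.1 kb, and the other 4 were farther from one.

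In BMP and TGFβ signalling, members were 58.3 kb upstream of Id2, a BMP target that encodes an inhibitor of bHLH proteins (score 65.8), 89.9 kb upstream of Pmepa1 (59.8) and 97.6 kb downstream of the start of the inhibitory Smad6 (52.7). The last was 4.82 kb from an E9.5 peak. The best of the 3 ranked 2242 in the E10.5 list. The list had 3 more genes nearest to a member, Smad5, Smad7 and the type II TGFβ receptor gene Tgfbr2, named here in addition to the 25, with scores of 51, 43.5 and 41.4. Of the 13 SHH pathway genes 0 were nearest to a member, where 4.18% of all protein-coding genes were, and the 2 within 100 kb, also named in addition, were Cdon and Smo.

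FGF genes had members 96.2 kb upstream of Spred2, an inhibitor of ERK signalling (score 84.3), and 142 kb downstream of the start of Fgfr2, an FGF receptor (75.1). WNT ligand genes had members 30.6 kb downstream of the start of Wnt11 (58.1) and 6.29 kb upstream of Wnt2b (55.0). The Wnt2b member had a CpG-rich window. In the retinoic acid list, members were 23.6 kb downstream of the start of Cyp26b1, which degrades retinoic acid (94.9), and 39.6 kb downstream of that of the receptor gene Rxra (70.1). Runx3, a Runt factor of skeletal and neural cells, had the best-scored member of the skeletal list (99.5), and this member, 7873 bp wide, held a GLI site.

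The highest score beside any list gene was found for another cell type, 20 kb upstream of Pax3 (score 113). Further members lay beside the muscle genes Myod1 (59.4 kb upstream, score 61.4) and Met (44.3 kb downstream of the start, 53.0), and the window of the latter was of low complexity. Neural and neural crest genes with members were Neurog2 (7.6 kb downstream, 92.7) and Foxd3 (62.9 kb upstream, 68.7), endothelial genes Cdh5 (73.5 kb upstream, 69.9) and Flt1 (56.5 kb upstream, 65.2), and ectodermal genes En1 (11.9 kb downstream, 66.9) and Dlx3 (9.71 kb downstream, 53.6). Which cell types the pooled buds contained was not measured, and in which cells a member was bound was not tested.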

How the data were processed

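The authors trimmed and aligned the ChIP-seq reads with Bowtie 1.1.0 to mm9, kept unique matches, and called peaks with MACS 1.4 (tool versions from the submitters' processing notes), using input samples as background, and combined the peaks of both replicates of a stage with MSPC into 1 list before deposit. The deposited lists hold the position of each peak and a score whose unit is not named in the file, and which is treated here as a score without a fixed unit. Total counts per sample are not part of the lists, so the depth is unknown. Columns of other samples numbered 0.

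Distances were taken from the peak centre to transcript 5′ ends of GENCODE vM1 on NCBIM37 (mm9). Sequences were counted on both strands in 300 bp around the centre, and tiles of 300 bp covered all sequence that met the position rule. The tile shares at equal GC content were weighted in bins of 2 percentage points. Shares were compared by Fisher's exact test, two-sided, with Benjamini-Hochberg adjustment over 46 tests at a threshold of 0.05, with Wilson intervals for shares and Newcombe intervals for differences (Python 3.11.15, SciPy 1.17.1, pandas 2.3.3, NumPy 2.4.6, Matplotlib 3.10.9). The procedure was tested on simulated sequences. A planned share of repeat-masked bases was not computed because the reference used marks no repeats, and the measure of distinct 6-letter words took its place, with no test.

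The members, gene lists and tests were chosen with earlier results of these data known. Named were the 10 best-scored members, the best member of each list gene (at most 25), up to 10 genes nearest to 3 or more members, the 3 densest windows, the 3 widest members and 2 peaks on each side of a limit. List symbols were matched by name or by RefSeq synonyms (GRCm38.p6, used for names only). Disp1 and Sox1 were not matched, and Plzf is another name of Zbtb16. The windows of 3 of the 5 best-scored members are not reported here. Alternatives covered the overlap, transcripts, distance limit, score, merging and window length.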

Additional observations from a re-analysis of the deposited data

How the results depend on the processing

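No paired analysis was possible because the lists combine the replicates of each stage, and no replicate could be left out for the same reason. Of 118 alternative values for 11 results, 94 were counted as unchanged. Of these, 20 came from 2 settings that left the number of members at 1065 (an overlap of 50% of the shorter peak, and no E9.5 peak within 1 kb) and say nothing about stability, which leaves 74 of 98. Unchanged meant the same direction and side of the threshold for tested differences, and a value within its interval for the SMAD box share. For counts it meant a change within a fixed factor, and for median GC differences a shift below the quartile range of the members. Both of these limits are wide. The median GC difference from the peaks inside genes, 0 in the main setting, counted as unchanged at 3.33 points with scores from 100. The causes of the following changes were not tested. The SMAD box difference from the E9.5-only class lost its call with peaks scored 50 or more (−7.38 points) or 100 or more (−45.0), with 500 bp windows (−6.51) and without low-complexity windows (−7.60). The TCF/LEF difference lost its call with protein-coding transcripts only (−5.94), a lower limit of 10 kb (−6.70), scores of 50 or more (−6.46) or 100 or more (−16.3), windows of 200 bp (−1.12) or 500 bp (−4.46) and without low-complexity windows (−6.66). The CpG-rich difference from the peaks inside genes passed with protein-coding transcripts only (3.34 points, adjusted p = 0.00330, Fisher's exact test) and with scores of 50 or more (2.80), and its difference from the E9.5-only class reversed at a 10 kb limit (−0.101). The SMAD box difference from the peaks inside genes reversed without low-complexity windows (0.0714) and with peaks under 1500 bp (1.14), both added after the data were seen. With both lists limited to scores of 100 or more, the rule gave 31 peaks, more than the 26 members of that score since fewer E9.5 peaks were left to overlap, and 32.3% of the 31 had a SMAD box. The share with a box was 43.1% in 200 bp and 74.6% in 500 bp windows. Genes with a member within 50 kb were 5.14% and within 200 kb 18.8%. Replicate spread and depth could not be seen in the lists, which limits every statement on the absence of a peak.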
